A study of Rattus norvegicus with 20 samples.

Results

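The 100 genes described here are those with the strongest excess of RNA in the ventral over the dorsal hippocampus of adult rats that was found in both kinds of sequencing library, made from polyadenylated RNA (polyA) and from RNA depleted of ribosomal RNA (RBD). They were taken from a table of 32883 rows, 1 per gene, by the size of their measured ventral to dorsal ratio V, which is the mean of the ventral samples plus 1 divided by the mean of the dorsal samples plus 1. Every row needed a mean of 50 or more normalized counts in polyA and in RBD samples, a ratio of the RBD to the polyA mean between 0.25 and 4, and V of at least 2 in both datasets. The limits on level and on the library ratio left 12059 rows, V of at least 2 in both datasets left 194, and the 100 with the highest value of the smaller V were kept. The genes were thus chosen by their measured ventral to dorsal ratio, and this difference is given below as a description without a test.

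The rows of the table carry no gene names or identifiers and nothing pairs them with genes, so each gene is given by the number of its row, counted from 1 below the header. Its name, its place in the genome (build Rnor_6.0), its sequence and its role are not given here, and marker genes of cell types could not be looked up. As background, the dorsal hippocampus is known for its part in spatial learning and memory, whereas the ventral hippocampus is connected with the amygdala, the hypothalamus and the prefrontal cortex and is known for its part in anxiety, stress and motivated behaviour. Within each subfield, the principal neurons of the 2 ends of the long axis differ in the genes that they express, and many of these genes change gradually along the axis.

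Male Wistar rats aged 3 months were used, which had been handled and had received no treatment. The hippocampus, with the dentate gyrus, the CA fields and the subiculum, was cut into 3 equal parts along its axis. The dorsal and the ventral part were sequenced from each animal, and the intermediate part between them was not collected. RNA of 7 animals was enriched for polyadenylated RNA with oligo(dT) beads (polyA), and RNA of 3 other animals, extracted with another reagent, was depleted of ribosomal RNA (RBD), so that 4 groups of 7, 7, 3 and 3 samples were compared. The files gave back 14920611 to 25262001 reads on genes for a sample, with lower totals in RBD samples. These are pieces of whole tissue, in which more cells of a type and more RNA per cell cannot be told apart.

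All 100 genes were higher in the ventral part in each of the 10 animals, which 16.4% of the rows within the limits were. The median V was 3.82 in polyA samples (2.61 to 26.4) and 3.81 in RBD samples (2.67 to 41.2), against a median of 0.99 in polyA and 1.00 in RBD samples over the 12059 rows within the limits, of which 1.79% in polyA and 2.13% in RBD samples had a V of at least 2. The list was steep at its top and flat at its end. The smaller V was at least 16 for 3 genes, at least 8 for 10, at least 4 for 38 and at least 3 for 76. The last gene inside (row 20931) had a smaller V of 2.6105 and the first outside (row 19141) 2.6103, so the border of the list follows from its size and not from a gap in the values. The dorsal polyA mean was 26.0% of the ventral mean for the median gene (3.64% to 38.3%), and in RBD samples 26.1% (1.93% to 37.4%). These genes thus had RNA in both parts, and 1 of the 100 had 3 reads or fewer in any dorsal sample.

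**Figure D1:**
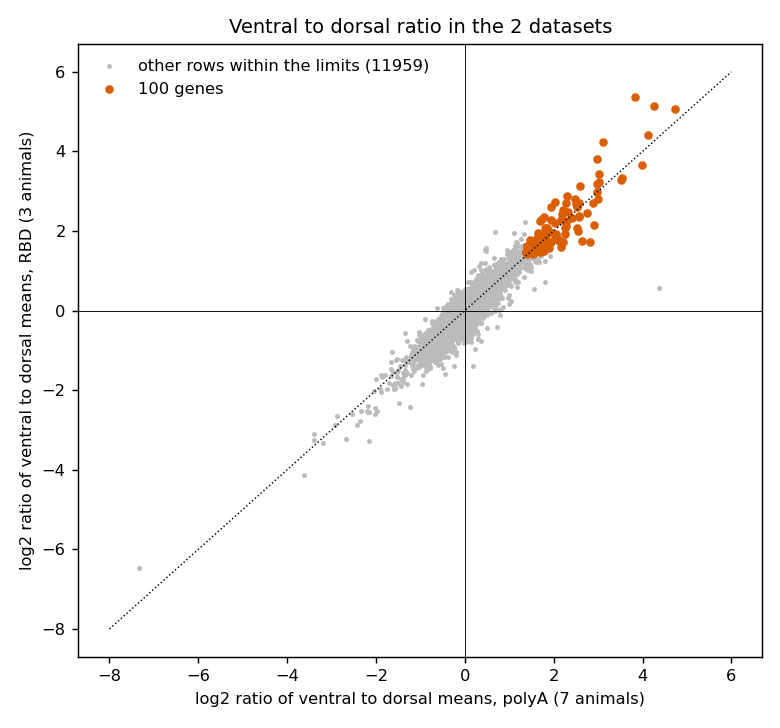
Each point is 1 of the 12059 rows within the limits on level and library ratio. The horizontal axis shows the log2 ratio of ventral to dorsal means in polyA samples (7 animals) and the vertical axis the same in RBD samples (3 animals); the dotted line marks equal ratios. The 100 genes (orange) form the upper right end of the cloud, and a single grey point far to the right, with a much lower RBD than polyA ratio, is the gene in row 28381.

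The separation between the parts was complete for nearly all genes. In polyA samples, the lowest ventral value lay above the highest dorsal value for 99 of the 100 genes, where 11.4% of all rows within the limits showed this. In RBD samples this held for all 100 genes (20.6% of all rows), and in both datasets for 99 (8.83% of all rows). In limma's moderated test of each dataset, with Benjamini-Hochberg adjusted p below 0.1 as the level for differentially expressed (DE) genes, all 100 were DE and higher in the ventral part in polyA samples, against 25.3% of the 15152 rows tested, and in RBD samples, against 14.4% of 14699. Nothing is read from these counts, because the rule used the same contrast. The log2 fold changes of the fit, on the scale of log2(normalized counts + 1), had a median of 1.91 in polyA (1.33 to 4.87) and 1.94 in RBD samples (1.43 to 5.37). Their standard errors had medians of 0.12 and 0.18.

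The 4 genes with the highest smaller V had very little RNA in the dorsal samples. This did not hold for all genes near the head of the list, as rows 13853 (rank 6) and 21976 (rank 14) had dorsal polyA means of 309 and 703. The gene in row 55 had 9.89 to 46.0 normalized counts in the 7 dorsal polyA samples (median 19.1) and 366 to 907 in the ventral ones (median 598). The dorsal RBD samples of replicates 1 to 3 had 45.6, 20.4 and 34.2, and the ventral ones 1081, 1000.1 and 1357. The lowest ventral value was thus far above every dorsal value in both datasets.

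The gene in row 28155 had 4.50 to 11.005 normalized counts in dorsal polyA samples (median 7.28) and 86.6 to 331 in ventral ones (median 134). In RBD samples the dorsal values were 8.56, 12.0 and 7.32 and the ventral values 355, 355 and 371, so the ventral RBD samples all lay above the ventral polyA samples. The gene in row 22384, by contrast, was even between animals. Its dorsal polyA samples had 24.3 to 38.7 normalized counts (median 36.4) and its ventral ones 512 to 664 (median 622). The dorsal RBD samples had 35.7, 31.1 and 28.1 and the ventral ones 577, 740 (739.7) and 754. No dorsal and ventral values came near each other, and the log2 fold change of row 22384 was 4.12 with polyA (standard error 0.10) and 4.40 with RBD libraries (standard error 0.16).

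The lowest dorsal level of all 100 genes was that of row 15451, which also had the largest excess of its ratio in RBD over polyA samples. Its dorsal polyA samples had 1.82 to 18.7 normalized counts (median 3.75), and 18.7 was the value of replicate 2. Its ventral polyA samples had 41.9 to 156 (median 94.7). The dorsal RBD samples had 2.85, 3.59 and 4.88, and the ventral ones 191, 167 and 229. V was 14.2 with polyA and 41.2 with RBD libraries, and with so few dorsal reads (2 in the lowest sample) this ratio carries a large counting error. With a pseudocount of 5 in place of 1, its RBD log2 fold change was 4.51 instead of 5.37. That of row 28155, also with few dorsal reads, was 4.69 instead of 5.16.

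**Figure D2:**
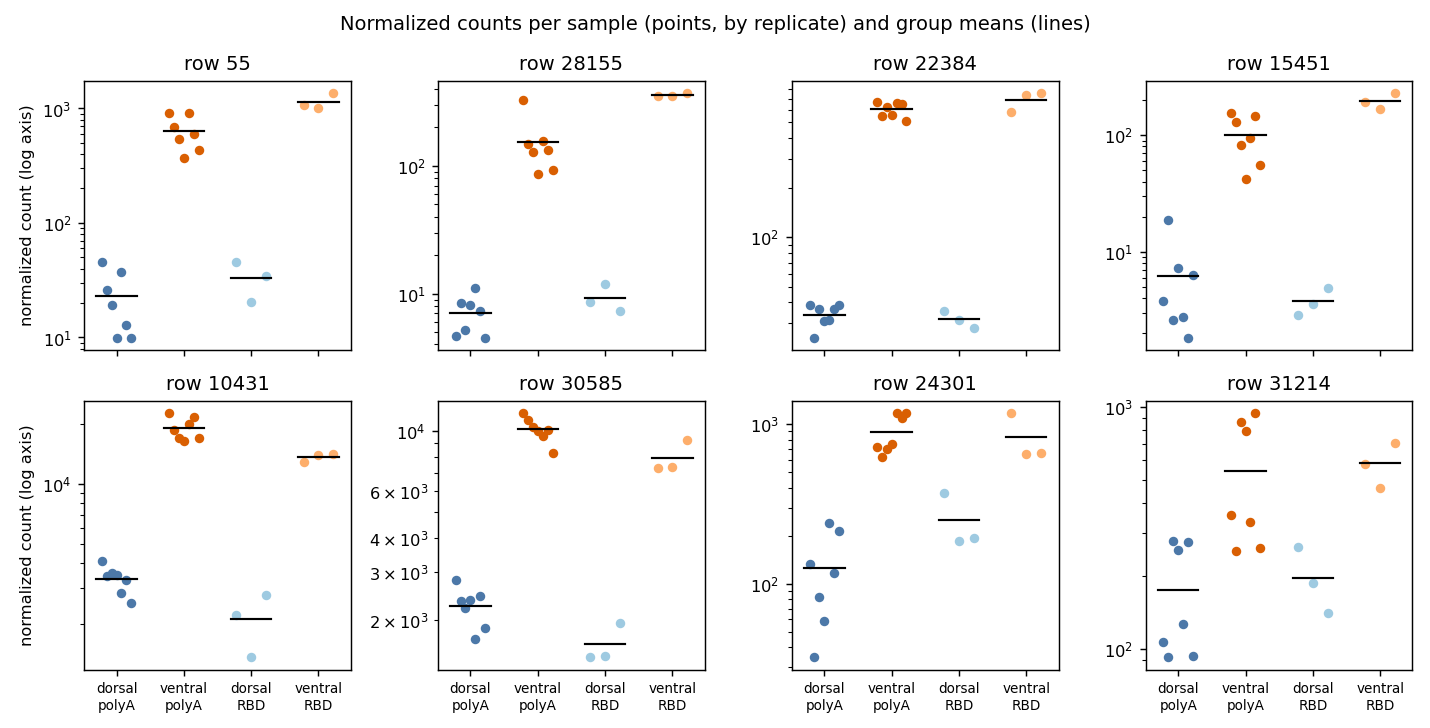
Normalized counts on log axes for 8 of the 100 genes. Points are samples, ordered by replicate within each of the 4 groups, and lines are group means. In 7 of the 8 panels every ventral sample lies above every dorsal sample of the same dataset; in row 31214 the polyA groups overlap, because the samples of both parts fall into a high and a low set.

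Most of the 100 genes were of low to middle abundance. The mean of all 20 samples was 50 to 300 normalized counts for 53 genes, 300 to 1000 for 34, 1000 to 5000 for 11 and above 5000 for 2. Of all rows within the limits, 27.7% were in the lowest of these classes and 37.9% had 1000 or more, in contrast to 13 of the 100 genes. The rule set a lower limit of the level and ranked the rows by V. Whether ranking by V itself favours genes with few counts was not tested.

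The gene in row 10431 was the most abundant. Its dorsal polyA samples had 2524 to 4090 normalized counts (median 3453) and its ventral ones 16457 to 22671 (median 18495). The dorsal RBD samples had 2220.3, 1353 and 2780.1, and the ventral ones 12799.5, 13939 and 14088. The gene in row 30585 followed, with 1697 to 2801 (median 2358) and 8284 to 11636 (median 10027) in the dorsal and ventral polyA samples. Dorsal RBD samples had 1453, 1473 and 1953 of it, and ventral ones 7263, 7328 and 9207. The groups of neither gene overlapped, and both genes were lower in RBD than in polyA samples, with ratios of the means of 0.705 and 0.774.

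The abundance of the 100 genes was concentrated in a few rows. Row 10431 alone held 14.6% of the sum of their mean counts, and the 10 most abundant genes held 54.3%. Together, the 100 genes took 0.112% ± 0.00459 of all reads on genes in dorsal polyA samples (SD, n = 7), and 0.486% ± 0.0584 in ventral ones (SD, n = 7). With RBD libraries, the share was 0.138% ± 0.0144 in dorsal samples (SD, n = 3) and 0.605% ± 0.00887 in ventral ones (SD, n = 3). The share in ventral polyA samples ran from 0.417% in replicate 4 to 0.575% in replicate 1, whereas the ventral RBD samples lay between 0.595% and 0.612%. Without row 10431, the means in ventral samples were 0.399% in polyA and 0.541% in RBD.

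Since all 20 samples entered the choice, the difference was also looked at in samples that had no part in it. The rule was applied to 9 animals, and the 100 rows it gave were read in the animal left out. Each of these 10 lists shared 92 to 98 rows with the full list. In the animal left out, 99 of the 100 rows were higher in the ventral part for polyA replicate 2, and all 100 for each of the other 9 animals. At least a 2-fold difference was found for 96 to 100 of the rows. Of all rows within the limits, 1.72% to 2.49% reached a 2-fold ventral excess in the same animals. The median log2 difference of the rows was 1.84 to 2.14 over the 10 animals, against -0.0209 to -0.00177 for all rows. The lowest value in any animal was -0.43, in polyA replicate 2.

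**Figure D3:**
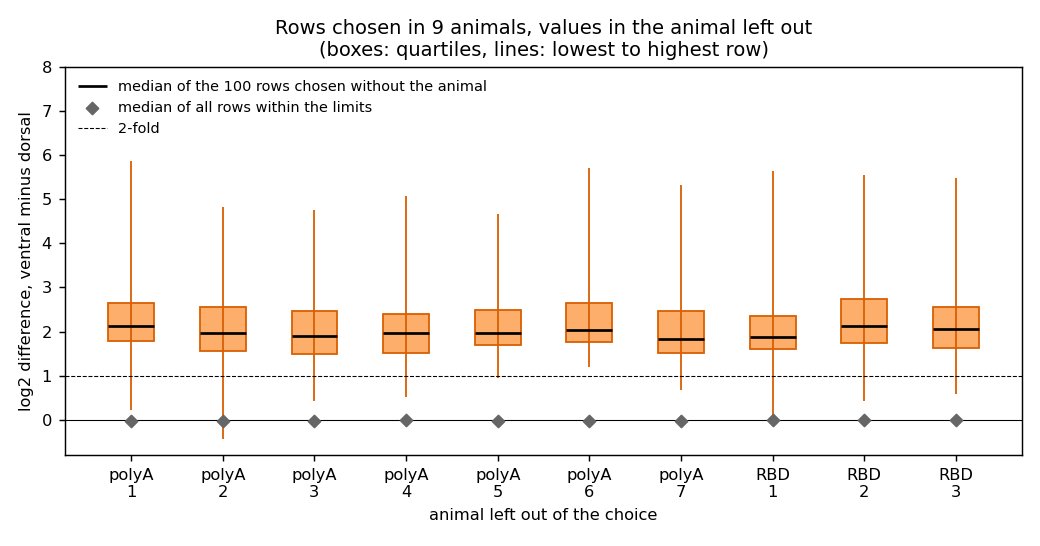
Log2 difference of ventral minus dorsal log2(normalized counts + 1) in each animal, for the 100 rows that were chosen in the other 9 animals. Boxes span the quartiles over rows, black lines are medians, vertical lines run from the lowest to the highest row, diamonds are the medians of all rows within the limits, and the dashed line marks a 2-fold difference. The medians of the chosen rows lie between 1.84 and 2.14 in all 10 animals and those of all rows close to 0.

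The same question was asked across the library types, which hold different animals. The 100 rows with the highest V in polyA samples alone, of which 88 were among the 100 genes, were tested in RBD samples. Of these, 98 were DE and higher in the ventral part (14.4% of all rows tested), none was DE in the dorsal direction, and their median V was 3.83 in polyA and 3.81 in RBD samples. The 100 rows with the highest V in RBD samples alone shared 85 with the 100 genes and 78 with the polyA list. All 100 were DE and higher in the ventral part in polyA samples (25.3% of all rows tested), with a median V of 3.89 in RBD and 3.82 in polyA samples. These tests are not fully independent of the choice. V of the second dataset was not used, but its mean over both parts had to reach 50 and the library ratio was limited. Some rows reached that mean only through their ventral samples. In RBD samples these included rows 55, 28155, 22384 and 15451, with dorsal means of 33.4, 9.28, 31.6 and 3.78. In polyA samples the same rows had dorsal means of 23.0, 7.03, 33.7 and 6.16. For such rows a higher ventral value was partly set by the choice. They were not left out, so the counts of 98 and 100 DE rows are descriptions.

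The genes in rows 28381 and 20493 were the exceptions, and they are named here because of their values. Row 28381 had 5.46 to 25.3 normalized counts (median 13.1) in dorsal and 224 to 509 (median 282) in ventral polyA samples, a V of 20.6. In RBD samples its dorsal values were 154, 67.1 and 242 and its ventral values 242, 251 and 199, so that replicate 3 was higher in the dorsal part. The log2 fold change was 0.75 (standard error 0.39, adjusted p = 0.216 from limma), and with the animal as a block the adjusted p was 0.0557. Its dorsal RBD level was thus above its dorsal polyA level in every sample, while the ventral levels overlapped. Row 20493 had 45.9 to 68.1 normalized counts in dorsal and 121 to 237 in ventral polyA samples. In RBD samples the dorsal values were 181, 70.7 and 35.4 and the ventral values 186, 171 and 119 (adjusted p = 0.197 from limma, 0.00794 with the animal as a block). Without the block, the adjusted p from edgeR was 0.301 for row 28381 and 0.318 for row 20493. From DESeq2 it was 0.254 and 0.543. Neither gene was among the 100, since V in RBD samples was 1.49 and 1.65.

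Within the 100 genes, the ratio was similar in both library types for most. The rule favours this, because it needed a high V in both datasets and ranked by the smaller V. V was larger in RBD samples for 60 of them, against 56.9% of all rows within the limits for the absolute log2 ratio, and the RBD minus polyA log2 difference of V had a median of 0.084 with quartiles of -0.18 and 0.24. When the dependence of the dorsoventral difference on the library was fitted (animals as blocks), 10 of the 100 genes passed an adjusted p below 0.1, 5 with the larger ventral excess in RBD samples and 5 with the larger one in polyA samples. This is close to the background of 10.2% of the 14174 rows tested (4.57% in the first and 5.58% in the second direction). It also depended on single animals, with 17 genes without polyA replicate 1, 6 without polyA replicate 2 or 3, 5 without RBD replicate 2 or 3, and 0 without the block. The rule used both contrasts, so the genes at the ends of this range are described without a test.

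Larger ratios in RBD samples were found in rows 15451 (above) and 17441. Row 17441 had 10.8 to 32.8 normalized counts in dorsal (median 19.3) and 123 to 321 in ventral polyA samples (median 182). The dorsal RBD samples had 17.1, 19.2 and 6.10, and the ventral ones 268, 354 and 237. The ventral ranges of both library types overlapped, and V was 8.59 with polyA and 19.002 with RBD libraries. Larger ratios in polyA samples were found in rows 24301 and 29112. Row 29112 had 17.99 to 34.4 normalized counts in the dorsal (median 32.8) and 132 to 235 in the ventral polyA samples (median 192). Dorsal RBD samples had 88.4, 69.5 and 80.5 of it, all above those of polyA, and ventral ones 250.2, 311 and 251. V was 6.23 with polyA and 3.38 with RBD libraries.

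The gene in row 24301 varied widely between animals in the dorsal part. Its dorsal polyA samples had 132, 34.5, 82.3, 58.8, 239, 116 and 214 normalized counts in replicates 1 to 7, and its ventral polyA samples 719, 620.001, 701, 747, 1178, 1092 and 1175. Ventral values of replicates 5, 6 and 7 were the highest ones. Its RBD values were 371, 184 and 194 in dorsal samples, and the ventral ones were 1167, 651 and 664. No groups of a dataset overlapped, and V was 7.05 with polyA and 3.30 with RBD libraries.

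The level of the 100 genes relative to other genes was higher in RBD than in polyA samples. The ratio of the RBD to the polyA mean had a median of 1.25 for the 100 genes and 1.00 for all rows within the limits, and it was above 2 for 12 of the 100 genes and 4.97% of all rows. In ventral samples alone, 76 of the 100 genes were higher in RBD than in polyA, against 49.9% of all rows, and in dorsal samples 68, against 50.6%. For the 100 rows that the mirrored rule gave for the dorsal hippocampus, these numbers were 39 in ventral and 50 in dorsal samples. The rule cut this ratio at 0.25 and 4, and the animals and the extraction reagent differ between the library types too, which cannot be told apart from the library type. No test was made.

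The mirrored rule also showed that strong differences were fewer in the dorsal direction. Only 103 rows had a V of at most 0.5 in both datasets, against 194 with a V of at least 2. The smaller of the 2 inverse ratios was 2.02 for the last of the 100 dorsal rows and 2.56 for the median row, and the smaller V of the 100 ventral genes had a minimum of 2.61 and a median of 3.47. The strongest single difference was nevertheless dorsal, with an inverse ratio of 88.3. These values are set by the rules and were not tested.

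The spread between animals within a group was not used by the rule. It was larger for the 100 genes than for the median of all rows. In the mirrored list of 100 dorsal rows it was similar to that of the 100 genes, except in dorsal polyA samples, where it was smaller. The SD of log2(normalized counts + 1) had a median of 0.24 in dorsal and 0.24 in ventral polyA samples, against 0.097 and 0.094 for all rows within the limits. With RBD libraries it was 0.29 in dorsal and 0.18 in ventral samples, against 0.11 and 0.10. The dorsal list had 0.17 in dorsal and 0.25 in ventral polyA samples, and 0.28 and 0.21 with RBD libraries, so a large spread was not particular to the ventral genes. The 94 rows that met the rule and ranked below the 100 genes had 0.22 in dorsal and 0.19 in ventral polyA samples. The 100 genes also had lower counts than most rows, and the part of the level in this gap was not tested. The least variable genes in ventral polyA samples were in rows 3889 and 19145. Row 3889 had 1286 to 1493 normalized counts in dorsal polyA samples (median 1378), and 3303 to 3821 in ventral ones (median 3666). Row 19145 had 70.0 to 105 in dorsal polyA samples (median 95.6), and 231 to 270.4 in ventral ones (median 248).

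In the ventral polyA samples, the 100 genes tended to be high or low together from animal to animal. Replicate 1 had the highest ventral value for 55 of the 100 genes, whereas it was the highest for 21.9% of all rows within the limits. Replicate 4 had the lowest value for 41 genes (11.8% of all rows). The median deviation from the group mean over the 100 genes was 0.25 in replicate 1, 0.14 in replicate 5 and 0.13 in replicate 6 on the log2 scale, and it was -0.079, -0.16, -0.20 and -0.082 in replicates 2, 3, 4 and 7. In replicate 1, 88 genes were above their group mean, and in replicate 4 11 genes were. For all rows the median deviations lay between -0.0071 and 0.013, which the scaling of the table by size factors holds close to 0. With each sample scaled by its total reads in place of the deposited size factors, the deviations of replicates 1 and 4 were 0.24 and -0.22.

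**Figure D4:**
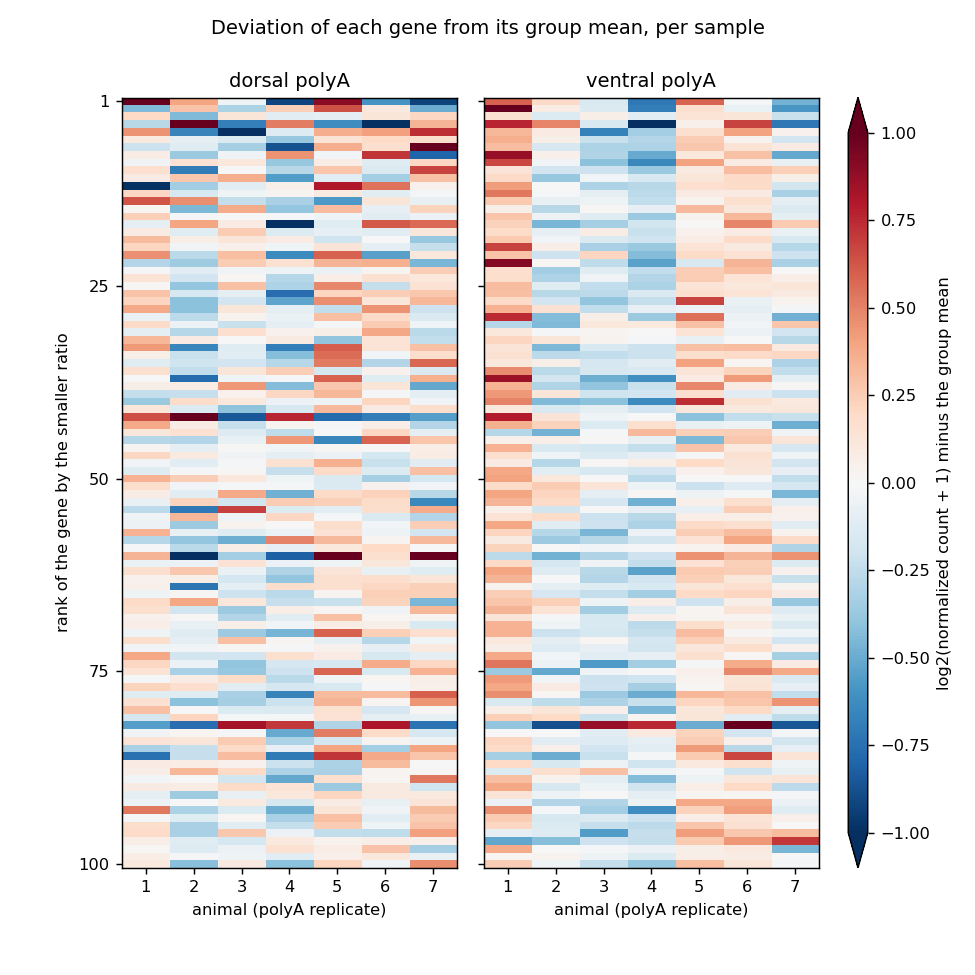
Deviation of each of the 100 genes (rows, by rank) from its group mean of log2(normalized counts + 1) in the 7 dorsal (left) and 7 ventral (right) polyA samples; colours are cut at -1 and 1. In the ventral panel, the column of replicate 1 is mostly red (88 of 100 genes above the mean) and that of replicate 4 mostly blue (11 of 100 above). In the dorsal panel, 27 to 64 of 100 genes are above the mean in each column, and single rows that are dark in both panels are genes whose level differs between animals in both parts.

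Across the 7 ventral polyA samples, the correlation between pairs of the 100 genes had a median of 0.56 (quartiles 0.22 and 0.76, 4950 pairs). For all rows within the limits the median was 0.0072 (quartiles -0.33 and 0.34), and for the 94 rows that met the rule and ranked below the 100 genes it was 0.34. The dorsal list had a median of 0.28 in the same samples, with 31.3% of its pairs above 0.5, against 55.9% for the 100 genes and 14.9% for all rows. In the dorsal polyA samples of the same animals the median over the 100 genes was 0.12. These values are across 7 samples that each pair shares and are descriptions. With each ventral sample left out in turn, the median stayed between 0.50 and 0.62, so neither replicate 1 nor replicate 4 carried it alone.

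The rows of the dorsal list moved the other way in the same ventral samples. Their median deviation was -0.13, -0.14 and -0.052 in replicates 1, 5 and 6, in which the 100 ventral genes were above their mean, and 0.067, 0.099, 0.13 and 0.071 in replicates 2, 3, 4 and 7. The signs were thus opposite in 7 of 7 ventral polyA samples. In dorsal polyA samples they were opposite in 5 of 7, and the deviations of the 100 genes were smaller, from -0.12 to 0.095. Among RBD samples, a joint shift was seen in the dorsal part, where the median deviations of the 100 genes were 0.17, -0.099 and -0.031 in replicates 1 to 3. Dorsal RBD replicate 1 had the highest value for 52 of the 100 genes (30.7% of all rows), and the signs were opposite to those of the dorsal list in 3 of 3 samples. Scaled by total reads, dorsal RBD replicate 3 had -0.050 for the 100 genes and -0.0046 for the dorsal list, so its signs were then the same. In the ventral RBD samples the median deviations of the 100 genes were only -0.0060, -0.025 and 0.014, with signs opposite to the dorsal list in 2 of 3 samples. When samples were scaled by total reads, they were 0.027, -0.056 and 0.012. The 94 rows that follow the 100 genes had 0.038, 0.011 and -0.040 there and shared their sign in 0 of 3 samples. Scaled by total reads, these 94 rows had 0.070, -0.020 and -0.041. The signs in the ventral RBD samples thus depended on the scaling, and no joint shift is read from this group. Where the cuts that bound the dorsal and the ventral part fell in each animal is not given in the sources used here, and their role in these values was not tested.

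**Figure D5:**
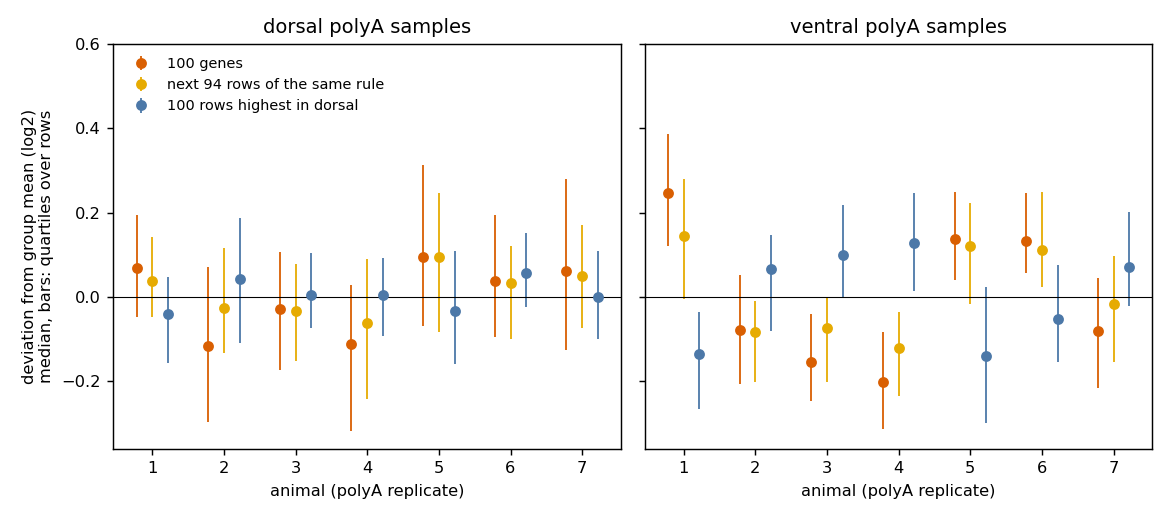
Median deviation from the group mean (points) with quartiles over rows (bars), on the log2 scale, for each of the 7 animals in dorsal (left) and ventral (right) polyA samples. In ventral samples, the 100 genes (orange) and the 94 rows that follow them (yellow) have the same sign in all 7 animals, and the 100 dorsal rows (blue) have the opposite sign, with 0.25 against -0.13 in replicate 1 and -0.20 against 0.13 in replicate 4.

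An animal with a high ventral level of a gene did not always have a high dorsal level of it. The correlation of dorsal and ventral values over the 7 polyA animals had a median of 0.44 over the 100 genes and was above 0.5 for 45 of them, against a median of 0.35 and 36.1% for all rows within the limits. It was highest for row 31214, the gene with the largest SD in ventral polyA samples and the only one whose polyA groups overlapped. Row 31214 had 107, 92.4, 279.9, 257, 127, 276 and 93.5 normalized counts in the dorsal and 359, 255, 862, 796, 333, 943 and 260.2 in the ventral samples of replicates 1 to 7. Replicates 3, 4 and 6 were thus high in both parts, and the other 4 animals low in both. Its log2 difference of ventral minus dorsal was nevertheless 1.38 to 1.77 in all 7 animals, and the correlation of both parts was 0.99. The dorsal RBD samples had 264, 187 and 140.3, and the ventral ones 578, 461 and 710.2.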

How the data were processed

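Per the labels, reads were mapped by the authors with STAR 2.7.9a to Rnor_6.0, counted per gene with featureCounts 2.0.1 and normalized with DESeq2 1.29. The deposited table holds these counts divided by 1 median-of-ratios size factor per sample, as signal values for 32883 rows and 20 samples. Dividing each sample by its smallest value above 0 gave whole numbers for 100% of its values (relative tolerance 1e-06), taken as the reads. Samples were grouped by the part, library and replicate number in the labels. The dorsal and ventral samples of the same library and number were taken as 1 animal. limma 3.58.1 (R 4.3.3) with a trend was fitted on log2(normalized counts + 1) in each dataset, without an animal term, on rows kept by filterByExpr (minimum count 10, minimum total 15). P-values were adjusted over all rows by Benjamini-Hochberg. The interaction was fitted with the animal as a block. On the recovered reads, edgeR 4.0.16 called 8011 rows in polyA and 4188 in RBD samples, against 8008 and 4178 with limma, and DESeq2 1.42.0 called 7846 and 3626. The main limma fit, limma with the block, edgeR and DESeq2 of each dataset were tested on simulated data, as was the blocked limma interaction. The simulation held no effect of the animal, and the other alternatives were not simulated. Over all rows within the limits, the dorsal and ventral samples of an animal, paired by replicate number, deviated together (correlation 0.24 to 0.55 in polyA and 0.39 to 0.56 in RBD animals). Over the 100 genes this correlation was 0.052 to 0.56 in polyA and 0.26 to 0.38 in RBD animals. The 100 genes, the lists and the rows given by number were chosen with earlier results of these data known. The latter are the 4 with the highest smaller V, 2 each with the highest mean, the lowest dorsal mean, the largest ratio difference in each direction and the largest and smallest ventral SD, and the 2 rows on each side of the end of the list.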

Additional observations from a re-analysis of the deposited data

Results flagged for a closer look

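In groups of 7 polyA values, a sample was marked when its gap to the nearest other sample took up an unusually large part of the range, which chance gives in about 1 in 20 groups. Of 49 groups looked at, 5 were marked. The number given by chance, about 2.45, holds only for independent groups that were not selected. Some rows here were picked for a low level or a large spread, and the log2 differences reuse the same values. The 2 numbers therefore cannot be compared. Row 28155 reached 331 in the ventral part of polyA replicate 1 (in normalized counts), while the others had 86.6 to 157. That animal also had a log2 difference between the parts of 5.87, while the others had 3.26 to 4.38. Row 15451 reached 18.7 in the dorsal sample of polyA replicate 2, while the others had 1.82 to 7.24. The log2 difference of row 30585 was 2.49 in polyA replicate 5, against 2.03 to 2.21. Row 6074, just outside the list, had 666 normalized counts in the dorsal sample of polyA replicate 5, against 460.3 to 523 in the others.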

How the results depend on the processing

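Under the alternatives, 93 values stayed within 1.5 times of the main count or within 1 SD of the main level, and 9 did not. Among the values of single rows, 208 stayed and 2 did not. The latter were the RBD log2 fold changes of rows 15451 and 28155 with a pseudocount of 5. The number of rows DE in RBD samples was 2178 to 3232 with 1 animal left out (2621 without replicate 1 and 2178 without replicate 3), against 4178. The interaction gave 439 to 1803 rows with 1 animal left out (829 without polyA replicate 2, 754 without polyA replicate 3, 439 without RBD replicate 3) and 28 without the block, against 1439. A replicate block for the animal gave 9056 DE rows with polyA and 5895 with RBD libraries, and 100 instead of 98 of the rows chosen in polyA were DE in RBD; this block changed no other count of chosen rows. With 1 RBD animal left out, 94 to 98 of these were DE. With the most abundant gene left out, the share of reads was 0.0973% in dorsal polyA, 0.399% in ventral polyA and 0.541% in ventral RBD samples, as its own reads were removed. The rule gave back 80 of the 100 genes when the lower limit of the mean was 100, which by itself takes out low genes, 91 with medians, and 97 to 99 with another offset, scaling or no limit on the library ratio. With 1 animal left out, 92 to 98 came back. The cause of the other changes was not tested. With 3 RBD animals, the spread in RBD samples is known only roughly, and at few dorsal reads the size of V is limited by counting error.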

Other observations

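Rows 1839 and 1840, at ranks 12 and 13, are the only pair of the 100 genes in neighbouring rows of the table. Whether the order of the rows follows the genome is not known, and reads shared between related or overlapping genes could not be looked for. The co-variation in ventral polyA samples was present along the whole list. The median deviation of replicate 1 was 0.31 for ranks 1 to 25, 0.30 for 26 to 50, 0.22 for 51 to 75 and 0.20 for 76 to 100. For replicate 4 the values were -0.31, -0.15, -0.18 and -0.20. Row 6074 had 1211, 943, 1019, 1075, 1743, 2058 and 1971 normalized counts in the ventral samples of polyA replicates 1 to 7, so that replicates 5, 6 and 7 were the highest, as in row 24301.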
